A study of Mus musculus with 14 samples.

Results

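Ly6a, Ly6c1, Ly6c2, Ly6e and Ly6i are 5 genes of the Ly6 cluster on mouse chromosome 15, and they were followed across 14 melanoma tumours grown in mice with and without the BRAF inhibitor PLX4032. The genes were picked by symbol, because Ly6i and Ly6c2 were among the largest rises under the drug in these same data, and all 5 were found among the 18481 genes of the deposited table. Their differences between treated and control tumours are therefore given as a description, with no test. The mouse melanoma line SMM102 was injected at 2 sites under the skin of each mouse (female C57BL/6J, aged 6 to 8 weeks), and treatment started at a tumour volume of 150 to 300 mm3. PLX4032 (vemurafenib, a small molecule that blocks the BRAF kinase) was given by intraperitoneal injection at 50 mg/kg on 5 days of each week. The treated groups were 2 tumours of day 3, 2 of day 6, 2 of day 18 and 4 of day 27. The controls were 2 tumours of day 3 and 2 of day 6, which received the vehicle by the design text and are named untreated in the labels. No control was collected later, so treatment and time cannot be told apart on days 18 and 27.

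Ly6 proteins are small cell surface proteins of the Ly6/uPAR family, folded into finger-like loops held by disulfide bonds and tied to the outer membrane by a glycosylphosphatidylinositol (GPI) anchor. Several of them are textbook surface markers of mouse blood cells: Ly6C, the product of Ly6c1 and Ly6c2, marks inflammatory monocytes, and Sca-1, the product of Ly6a, marks blood stem cells, activated lymphocytes and some endothelial and stromal cells. Ly6a, Ly6c and Ly6e are known to respond to interferons, which makes the cluster a common readout of inflamed tissue.

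The 5 genes stood within 156.9 kb of each other on chromosome 15 of GRCm38, the assembly also called mm10, in the GENCODE M21 annotation. Ly6e (ENSMUSG00000022587.14) lay at chr15:74955051-74959905 on the plus strand. The other members all lay on the minus strand: Ly6i (ENSMUSG00000022586.11) at chr15:74979534-74983430, Ly6a (ENSMUSG00000075602.10) at chr15:74994877-74998031, Ly6c1 (ENSMUSG00000079018.10) at chr15:75044018-75048830 and Ly6c2 (ENSMUSG00000022584.14) at chr15:75108158-75111970. Each had 3 coding exons. The lowest annotated bases of Ly6c1 and Ly6c2 were 64.1 kb apart. Their coding sequences of 396 bases, stop codon included, were identical at 387 bases (97.7%) and differed at 9, with 0 gaps. The first 300 bases of each are printed because the measured levels of the 2 genes behaved differently although their coding sequences are nearly the same. They read 5′ to 3′ from the GENCODE transcripts, with each base that differs between the 2 genes in capitals.
Ly6c1: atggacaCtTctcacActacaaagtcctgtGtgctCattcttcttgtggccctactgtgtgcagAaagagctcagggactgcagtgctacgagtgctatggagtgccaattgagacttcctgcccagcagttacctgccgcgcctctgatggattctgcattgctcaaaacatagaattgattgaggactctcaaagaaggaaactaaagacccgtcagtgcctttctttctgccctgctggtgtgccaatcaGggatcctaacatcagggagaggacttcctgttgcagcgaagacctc
Ly6c2: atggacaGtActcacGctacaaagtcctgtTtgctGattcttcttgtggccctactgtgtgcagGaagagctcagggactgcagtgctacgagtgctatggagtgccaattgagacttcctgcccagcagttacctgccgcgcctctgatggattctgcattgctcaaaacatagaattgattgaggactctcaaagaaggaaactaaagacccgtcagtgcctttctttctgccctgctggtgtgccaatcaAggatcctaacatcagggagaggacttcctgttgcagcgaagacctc
Of the 9 differing bases 7 lie in this stretch, most of them near the 5′ end, and 2 lie after it. Other pairs were less alike over the coding sequence: Ly6a and Ly6i shared 86.4% of aligned bases, Ly6a and Ly6c1 82%, Ly6c2 and Ly6i 81.5%, and Ly6e shared between 50.5% and 53.8% with the others.

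That similarity limits what the values of single genes can say. The submitters' processing notes name kallisto, which assigns reads by short stretches of sequence, by default 31 bases long. Of the 31-base stretches in the protein-coding transcripts of each gene, 99.4% occurred in no other gene for Ly6e, 80.8% for Ly6i, 68.1% for Ly6a, 53.2% for Ly6c1 and 47.5% for Ly6c2. Ly6c2 shared 48.2% of its stretches with Ly6c1, while Ly6c1 shared 33% with Ly6c2 and 15.7% with Ly6a. Reads from shared stretches are divided by an estimate, so the split between Ly6c1 and Ly6c2 is uncertain and their sum is given as well. Whether strand was used in the quantification is not given in these sources.

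Upstream sequence was given for 2 of the 5 members in the RefSeq promoter table (GRCm38.p6), Ly6c1 and Ly6c2. The 250 bases before the first listed start of each are shown because the upstream sequences were less alike than the coding ones: of 284 aligned columns 68 were gaps, 31 of them at the ends, where the windows are offset, and 75.9% of the 216 columns without a gap were identical. Capitals mark matches to the core of the binding site of PU.1 (GAGGAA, or TTCCTC where it stands on the other strand), a transcription factor of myeloid cells, and to the TATA box (TATAAA).
Ly6c1, chr15:75048838-75049087, minus strand: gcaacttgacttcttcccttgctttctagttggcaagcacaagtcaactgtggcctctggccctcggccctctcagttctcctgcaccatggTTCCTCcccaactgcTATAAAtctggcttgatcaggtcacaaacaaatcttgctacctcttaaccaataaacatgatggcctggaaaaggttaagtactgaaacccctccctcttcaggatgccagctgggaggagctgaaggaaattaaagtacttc
Ly6c2, chr15:75111972-75112221, minus strand: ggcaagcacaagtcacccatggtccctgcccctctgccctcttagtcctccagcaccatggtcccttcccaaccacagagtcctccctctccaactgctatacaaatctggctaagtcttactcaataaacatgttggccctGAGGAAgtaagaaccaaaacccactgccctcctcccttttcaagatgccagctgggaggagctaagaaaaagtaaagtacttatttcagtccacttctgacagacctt
The Ly6c1 sequence held the PU.1 core 158 bases before the start and TATAAA 143 bases before it. The Ly6c2 sequence held the PU.1 core 108 bases before the start and no TATAAA. This depended on the start: before the second listed start neither gene held TATAAA, and Ly6c1 held the PU.1 core 1 time and Ly6c2 2 times. Neither held the interferon gamma element GAS (TTCNNNGAA) or the interferon element ISRE on either strand, and the 2 matches in Ly6c1 did not overlap. Among 32851 mouse promoters of the same length, 23.3% held the PU.1 core, 12.4% TATAAA, 7.02% GAS and 2.98% ISRE, so the letters alone are common and show no binding.

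The libraries were made from whole flash-frozen tumours, so host cells and tumour cells were measured together. The deposited values are TPM (transcript levels scaled to a common total per library) rescaled between samples, and are called levels here. They are per transcript length and can be compared between genes. Column totals ran from 879385 to 1084401, and read depth is unknown. The 4 tumours of day 27 came from 2 mice, left and right, but the columns do not say which is which, so p-values that involve day 27 are too small. Those 4 tumours also give 3 of the 8 residual degrees of freedom shared by all tests, and 1 animal number appears both on a control of day 6 and on a treated tumour of day 3. Columns do not identify animals in any group. The labels of day 18 number its tumours only 1 and 2, so whether these came from 1 mouse or 2 is unknown. Numbers of tumours within a group are names only.

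In the controls the 5 genes differed widely in level and kept the same order in all 4 tumours: Ly6e, then Ly6a, Ly6c1, Ly6c2 and Ly6i. Ly6e averaged 1573 ± 138 (SD, n = 4), which put it at place 103 of 18481 genes. Ly6a averaged 173.2 ± 55.8, Ly6c1 55.05 ± 13.8, Ly6c2 17.4 ± 10.05 and Ly6i 3.51 ± 2.66 (SD, n = 4 each). Neighbours in this order did not overlap in range, with Ly6c1 at 41.3 to 74.3 and Ly6c2 at 11.1 to 32.3 the closest in ratio. Ly6i lay at place 11690. All 5 genes reached 1 in at least 2 tumours and passed the filter for testing.

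Between control day 6 and control day 3, none of the 5 genes differed by limma's test with Benjamini-Hochberg adjustment. The difference of log2(value + 1) was -0.81 for Ly6a (SE 0.58, limma adjusted p = 0.901), 0.08 for Ly6c1 (SE 0.47), -0.51 for Ly6c2 (SE 0.90) and -0.11 for Ly6e (SE 0.25). The adjusted p-values of the last 3 ran from 0.965 to 0.994. Ly6i showed the widest gap, from 6.73 and 4.56 on day 3 to 1.98 and 0.792 on day 6, a log2 difference of -1.50 (SE 0.85, limma adjusted p = 0.875). Counted from the highest difference, that was place 15797 of 15841 genes. Of 15841 genes tested, limma called 0 (0%), and 886 had an unadjusted p under 0.05.

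**Figure D1:**
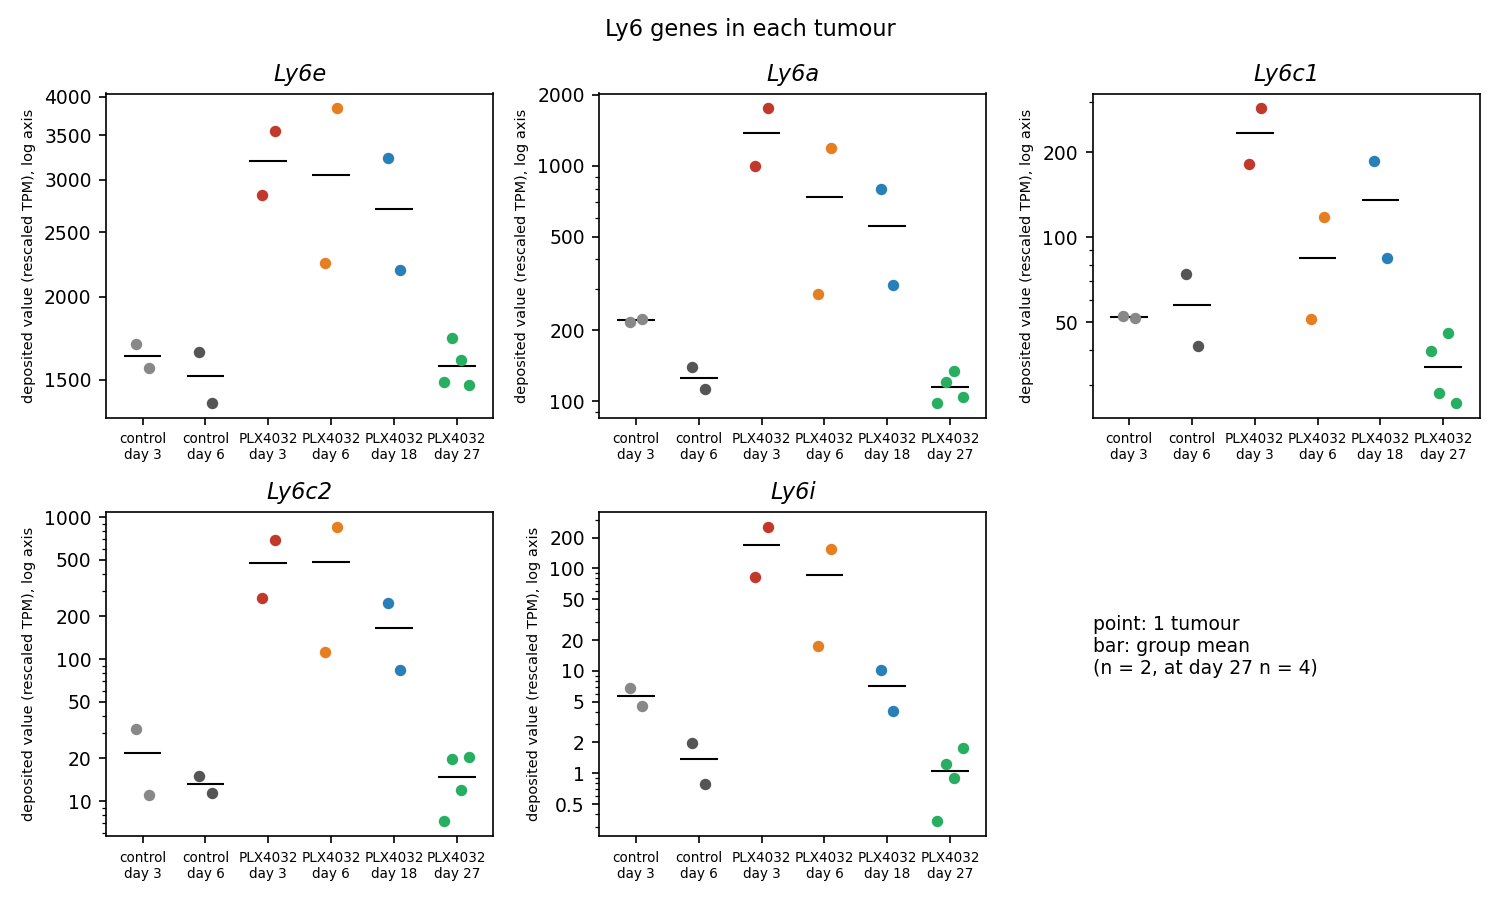
Levels of the 5 Ly6 genes (rescaled TPM, log axes that differ between panels) in each of 14 tumours by group; each point is 1 tumour and each bar the group mean. The day 27 tumours (98.4 to 134 for Ly6a) lie among or below the controls of that gene (112 to 223), while the day 3 tumours lie above all controls for every gene.

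Ly6e, a broadly expressed member known from thymocytes and as an interferon-responsive gene, was the most abundant of the 5 in every tumour. Its controls lay at 1697 and 1559 on day 3 and at 1650 and 1384 on day 6. The treated tumours lay at 2843 and 3551 on day 3, 2251 and 3844 on day 6, 3233 and 2190 on day 18, and 1488, 1730, 1606 and 1471 on day 27. All tumours of days 3, 6 and 18 were above all controls, and those of day 27 fell within or close to the control range. Against the control mean, the group means were 2.03-fold on day 3, 1.94-fold on day 6, 1.72-fold on day 18 and 1.00-fold on day 27. This was the smallest ratio of the 5 genes on days 3 and 18, set on the highest starting level. In bulk tumour RNA, more or fewer cells of a type and more or less RNA per cell cannot be told apart, here and in what follows.

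Ly6a encodes Sca-1. In the controls it stood at 218 and 223 on day 3 and at 139.6 and 112 on day 6. Under PLX4032 it stood at 1002 and 1755 on day 3, 286 and 1184 on day 6, 794 and 310 on day 18, and 98.4, 121, 134 and 105 on day 27. Every tumour of days 3, 6 and 18 was above every control, with day 6 tumour 1 nearest to them. The day 27 tumours lay between 98.4 and 134, next to the day 6 controls and below those of day 3. The group means were 7.96-fold, 4.24-fold, 3.19-fold and 0.661-fold the control mean on days 3, 6, 18 and 27.

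Ly6c1 encodes Ly6C and is known from endothelial cells as well as leukocytes. It was at 52.7 and 51.9 in the controls of day 3 and at 74.3 and 41.3 in those of day 6. Treated tumours were at 181 and 286 on day 3, 51.6 and 118 on day 6, 186 and 84.6 on day 18, and 39.7, 28.1, 45.7 and 26.0 on day 27. Day 6 tumour 1 lay inside the control range, which made day 6 the exception among the early groups. On day 27, 3 of the 4 tumours were below all controls and the other was not. The group means were 4.24-fold, 1.54-fold, 2.45-fold and 0.634-fold the control mean on days 3, 6, 18 and 27.

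Ly6c2 encodes the Ly6C antigen for which inflammatory monocytes are sorted. Its controls were at 32.3 and 11.1 on day 3 and at 15.05 and 11.4 on day 6. Treated tumours were at 269.5 and 685 on day 3, 113 and 854 on day 6, 248 and 84.2 on day 18, and 7.21, 19.7, 12.0 and 20.4 on day 27. Every tumour up to day 18 lay above every control, and the day 27 tumours overlapped with the controls. The group means were 27.4-fold the control mean on day 3, 27.7-fold on day 6, 9.52-fold on day 18 and 0.851-fold on day 27. The 2 tumours of day 6 differed 7.57-fold from each other, so the similar means of days 3 and 6 hide a wide spread. The sum of Ly6c1 and Ly6c2, which does not depend on how shared reads were split between them, was 9.80-fold the control mean on day 3, 7.84-fold on day 6, 4.15-fold on day 18 and 0.686-fold on day 27.

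Ly6i, a less studied member found on myeloid cells, had the widest range in ratio and the lowest level of the 5 in every tumour except day 6 tumour 2, where it was above Ly6c1 (155 against 118). Its controls were at 6.73 and 4.56 on day 3 and at 1.98 and 0.792 on day 6. Treated tumours were at 82.9 and 255.5 on day 3, 17.5 and 155 on day 6, 10.2 and 4.04 on day 18, and 0.339, 1.23, 0.894 and 1.77 on day 27. All tumours of days 3 and 6 were above all controls. On day 18 tumour 1 was above all controls and tumour 2 was among them, and the day 27 tumours were among or below the day 6 controls. The group means were 48.2-fold the control mean on day 3, 24.5-fold on day 6, 2.03-fold on day 18 and 0.302-fold on day 27. That control mean pools means of 5.643 on day 3 and 1.385 on day 6. Ratios to controls of the same day would differ, and the order of days 3 and 6 depends on which controls are used. On day 18 Ly6i was the only member of the 5 to overlap with the controls.

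On the log2(value + 1) scale, which understates changes of low genes, the day 3 differences from the controls were 5.24 for Ly6i (SE 0.74), 4.68 for Ly6c2 (SE 0.78), 2.99 for Ly6a (SE 0.50), 2.06 for Ly6c1 (SE 0.41) and 1.02 for Ly6e (SE 0.22). Counted from the highest of 15841 genes, Ly6i was at place 3 and Ly6c2 at place 8. On day 6 the differences were 4.22 for Ly6c2, 3.79 for Ly6i, 1.80 for Ly6a, 0.91 for Ly6e and 0.53 for Ly6c1. Ly6c2 was then at place 1 and Ly6i at place 3. Both days are set against the pooled controls, and for Ly6i the order of days 3 and 6 depends on that pooling. On day 18 the differences were 3.11, 0.95, 1.57, 0.76 and 1.20 for Ly6c2, Ly6i, Ly6a, Ly6e and Ly6c1, in that order. On day 27 they were -0.19, -0.97, -0.54, 0.00 and -0.65. The median of the 5 was 2.99 on day 3, 1.80 on day 6, 1.20 on day 18 and -0.54 on day 27, beside 0.02, 0.01, 0.07 and 0.01 over all genes tested.

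In day 3 tumours 5 of 5 members were above all 4 controls, as were 31.2% of all genes tested. The counts were 4 of 5 on day 6 (16.2% of all genes), 4 of 5 on day 18 (24.9%) and 0 of 5 on day 27 (7.33%). No member had all day 27 tumours under all controls, against 6.43% of all genes. The choice of the genes set these counts, and nothing is read from them. Single tumours carried much of the later values: without day 6 tumour 2 the day 6 difference fell to 0.78 for Ly6a, -0.06 for Ly6c1, 2.76 for Ly6c2, 0.52 for Ly6e and 2.25 for Ly6i, and without day 6 tumour 1 it was 2.83, 1.11, 5.67, 1.29 and 5.32. Without day 18 tumour 1 the day 18 difference was 0.90 for Ly6a, 0.64 for Ly6c1 and 0.48 for Ly6e, and without day 18 tumour 2 it was 2.25, 1.77 and 1.04.

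The tumours of day 27 were then compared with those of day 18, without the controls. The choice of the genes names no day for their rises, so this comparison may not be independent of it. At the threshold 3 of the 5 genes were lower, beside 10% of all genes called and 6.86% called lower. Ly6c2 fell by 3.30 on the log2 scale (SE 0.78, limma adjusted p = 0.0264), from 248 and 84.2 to between 7.21 and 20.4. Ly6a fell by 2.12 (SE 0.50, limma adjusted p = 0.0257), from 794 and 310 to between 98.4 and 134. Ly6c1 fell by 1.85 (SE 0.41, limma adjusted p = 0.0192), from 186 and 84.6 to between 26.0 and 45.7. Ly6e (-0.76, SE 0.22, limma adjusted p = 0.0531) and Ly6i (-1.92, SE 0.74, limma adjusted p = 0.122) did not pass. In all 5 genes every day 27 tumour was under both day 18 tumours, which held for 24.4% of all genes tested.

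The median difference of the 5 genes was -1.92, beside -0.06 over all genes tested. The sum of Ly6c1 and Ly6c2 also fell, by 2.43 (limma adjusted p = 0.0323). Scaling moved the split of all calls, of which 31.7% were higher, 42.4% after median-of-ratios rescaling and 59.1% after quantile normalisation, and the calls of Ly6a, Ly6c1 and Ly6c2 held under both. The calls were not stable to the choice of tumours. Without day 18 tumour 1 all 3 were lost, with differences of -2.53 for Ly6c2 (adjusted p = 0.247), -1.44 for Ly6a (adjusted p = 0.264) and -1.29 for Ly6c1 (adjusted p = 0.213, all limma). Ly6c2 was also lost without day 18 tumour 2 or day 27 tumour 1, Ly6a without day 27 tumour 1, 2 or 4, and Ly6c1 without day 27 tumour 2, with limma adjusted p-values from 0.0514 to 0.0606. When the day 27 tumours were averaged in pairs to stand for 2 mice, all 3 calls were lost in each of the 3 possible pairings (limma adjusted p from 0.0796 to 0.122), at differences close to those above. If day 18 was among the days on which the genes were chosen, the fall from day 18 is in part set by that choice.

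**Figure D2:**
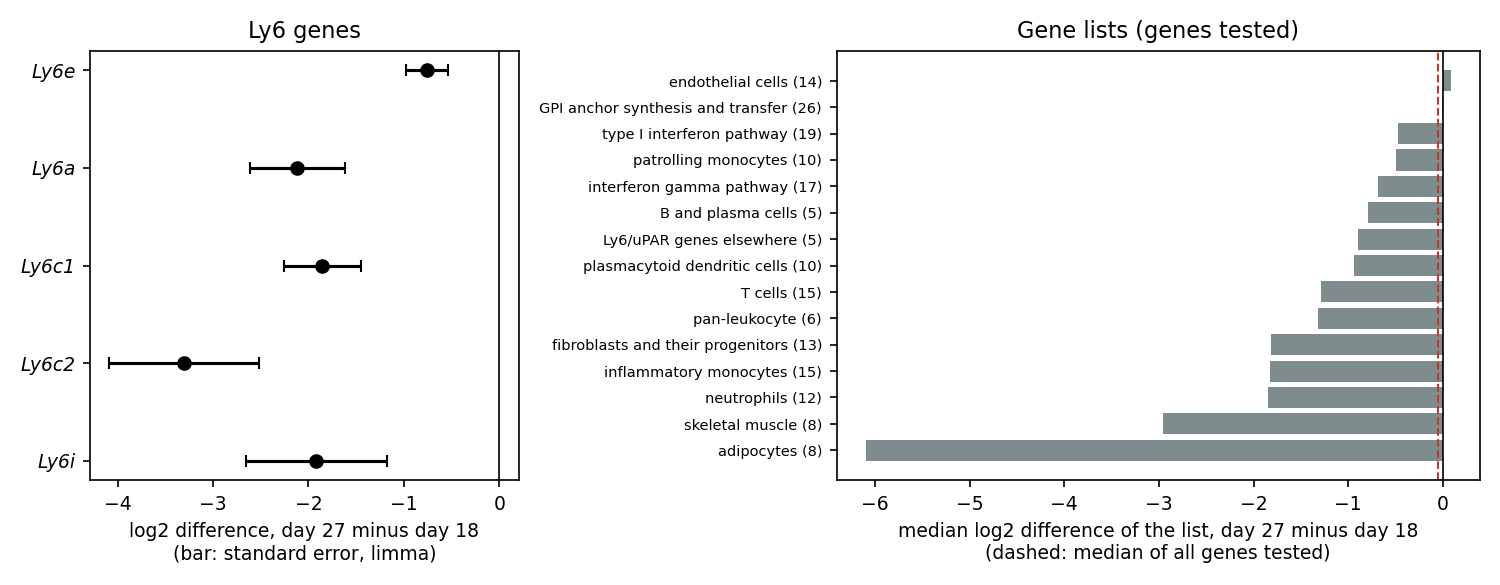
Left, differences of mean log2(value + 1) between PLX4032 day 27 (n = 4) and day 18 (n = 2) for the 5 Ly6 genes, with standard errors from limma; right, the median difference of each gene list, with the number of genes tested in brackets and the median of all genes (-0.06) as a dashed line. All 5 Ly6 genes lie below 0, from -0.76 for Ly6e to -3.30 for Ly6c2.

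The balance between the genes is a description too: Ly6c2 and Ly6i were chosen for large rises, which in part sets a higher share of Ly6c2 and a lower share of Ly6e in treated tumours. Ly6c2 made up 16.8% to 38.0% of the sum of Ly6c1 and Ly6c2 in the controls. Its share was 59.8% and 70.5% on day 3, 68.6% and 87.9% on day 6, 57.2% and 49.9% on day 18, and 15.4%, 41.2%, 20.8% and 44.0% on day 27. The treated tumours up to day 18 were all above the controls and above all day 27 tumours. The share of gene pairs with such an order was not counted. By the estimated split of shared reads, which is uncertain, the order of the 2 genes turned over. Ly6c1 was the higher one in every control and every day 27 tumour, and Ly6c2 in every tumour of days 3 and 6. In day 18 tumour 2 they could not be separated, at 84.6 and 84.2.

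Ly6i and Ly6c2 did not keep a fixed ratio either. Ly6i was 0.308 and 0.373 of the level of Ly6c2 on day 3, 0.155 and 0.181 on day 6, 0.0413 and 0.048 on day 18, and between 0.047 and 0.0869 on day 27. The tumours of days 3, 6 and 18 did not overlap with each other in this ratio, and the share of gene pairs that separate so was not counted. The controls spread from 0.0695 to 0.412, with both day 3 controls above both day 6 controls. Ly6e made up 84.3% to 89.3% of the summed level of the 5 genes in the controls, 64.9% and 54.4% on day 3, 82.8% and 62.5% on day 6, 72.3% and 81.9% on day 18, and 89.3% to 91.1% on day 27.

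**Figure D3:**
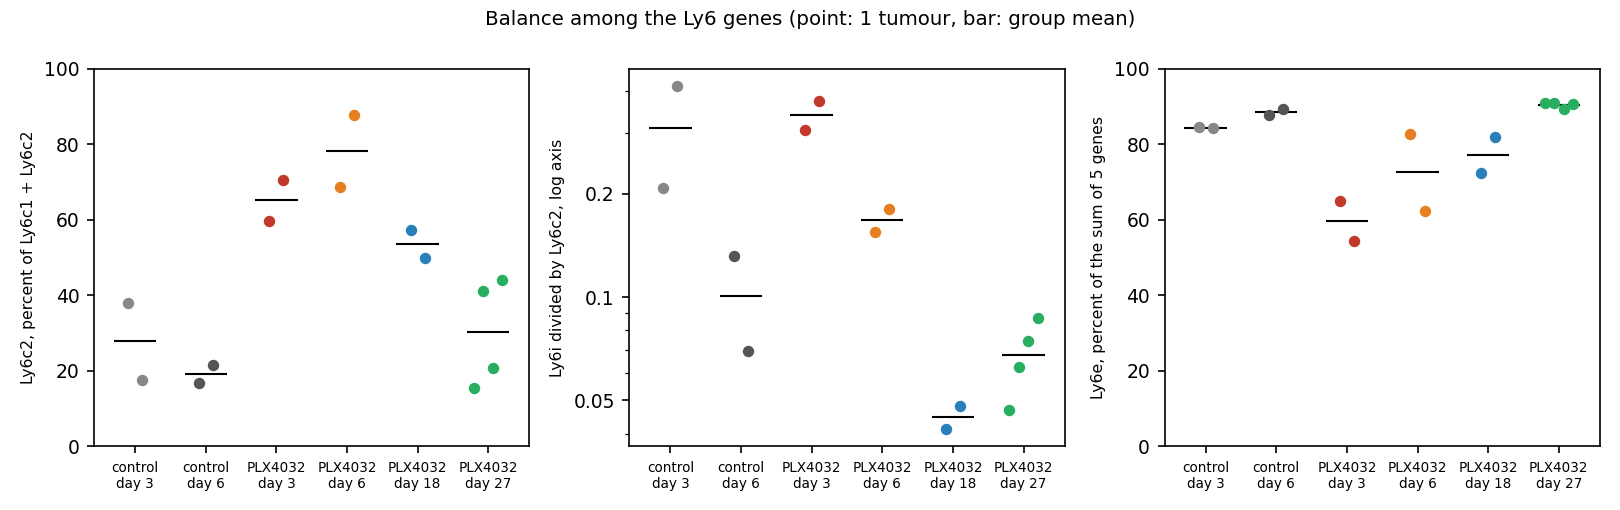
Ratios between the Ly6 genes in each tumour: Ly6c2 as a percent of Ly6c1 plus Ly6c2, Ly6i divided by Ly6c2 on a log axis, and Ly6e as a percent of the sum of the 5 genes; each point is 1 tumour and each bar the group mean. The share of Ly6c2 lies between 49.9% and 87.9% in tumours of days 3, 6 and 18 and at or below 44.0% in the others. Ly6c2 was chosen for its large rise, which in part sets this order.

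The leukocyte gene Ptprc, which encodes CD45, moved with the Ly6 genes, and its part in the result was not tested. It was at 6.01 to 29.2 in the controls, 120.5 and 182.8 on day 3, 57.3 and 140.3 on day 6, 53.6 and 29.6 on day 18, and 14.1 to 34.1 on day 27. Divided by Ptprc, Ly6c2 was 0.607 to 1.90 in the controls, 2.24 and 3.75 on day 3, 1.97 and 6.09 on day 6, 4.63 and 2.84 on day 18, and 0.510 to 1.36 on day 27. All tumours of days 3, 6 and 18 were above all others in this ratio, the lowest of them by a narrow margin. Ly6c2 and Ly6i were chosen for large rises in these data, which in part sets their ratios to Ptprc. The share of all genes with such an order was not counted. Ly6i divided by Ptprc was 0.0798 to 0.290 in the controls, 0.688 and 1.40 on day 3, 0.306 and 1.10 on day 6, 0.191 and 0.137 on day 18, and 0.0240 to 0.0852 on day 27, so it was above the controls on days 3 and 6 and among them on day 18.

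Ly6a and Ly6c1 did not stand above the controls in this way. Ly6a divided by Ptprc was 5.64 to 18.7 in the controls, 8.32 and 9.60 on day 3, 5.00 and 8.44 on day 6, 14.8 and 10.5 on day 18, and 3.07 to 8.34 on day 27, so the treated groups of days 3 and 18 lay inside the control range. Ly6c1 divided by Ptprc was 1.805 to 6.88 in the controls, 1.502 and 1.565 on day 3, 0.901 and 0.839 on day 6, 3.47 and 2.86 on day 18, and 0.762 to 2.81 on day 27, so all tumours of days 3 and 6 were below all controls. Ptprc was at 57.3 or more in those tumours and at 29.2 or less in the controls, so the divisor sets this order and nothing is read from it. Ly6c1 was also set against Pecam1, which encodes the endothelial adhesion protein CD31. The ratio was 2.34 to 3.20 in the controls, 3.61 in both day 3 tumours, 1.71 and 3.16 on day 6, 5.38 and 2.59 on day 18, and 0.925 to 1.13 on day 27, where all tumours were below all others. Ly6c1 alone overlapped with the controls on day 27, at 26.0 to 45.7 against 41.3 to 74.3, so this separation also rests on the divisor. The share of all genes with such a separation was not counted.

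**Figure D4:**
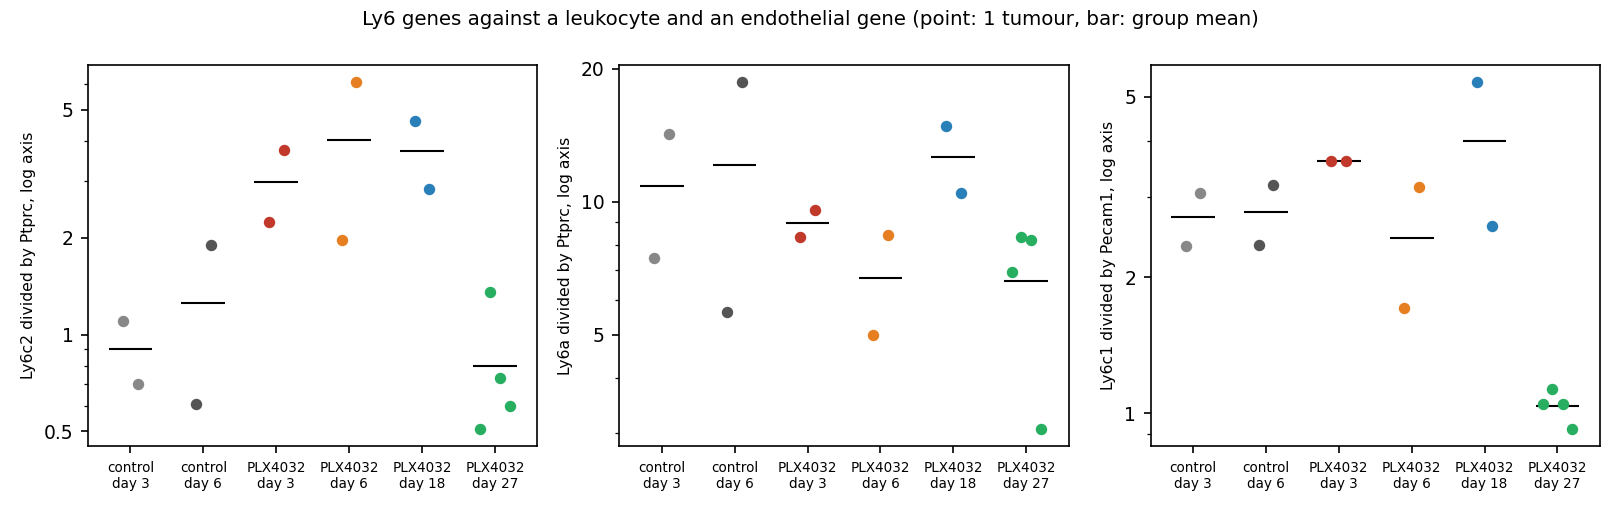
Ly6c2 and Ly6a divided by the leukocyte gene Ptprc, and Ly6c1 divided by the endothelial gene Pecam1, on log axes, in each tumour; each point is 1 tumour and each bar the group mean. Ly6c2 per Ptprc lies at 1.97 or more in the tumours of days 3, 6 and 18 and at 1.90 or less in the others, whereas Ly6a per Ptprc overlaps between controls and most treated tumours. Ly6c2 was chosen for its large rise, which in part sets its order.

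Marker lists of cells that could carry Ly6 proteins were counted with the same limma fit. In day 3 tumours, where limma called 45.8% of all genes and 24.9% higher, 12 of 15 inflammatory monocyte genes rose and 2 fell. Of all calls, 54.4% were higher, and 38.9% after quantile normalisation, which moved the median of all genes to -0.15. Ccr2, the receptor that brings these monocytes out of the bone marrow, rose by 3.32 on the log2 scale (SE 0.53, limma adjusted p = 0.000779). Plac8 was at 32.2 ± 17.4 (SD, n = 4) in control tumours and at 354 and 859 on day 3. S100a4, which other cells including melanoma cells also make, went the other way, from 4714 ± 1634 (SD, n = 4) to 1957 and 1246. Because S100a4 outweighs the other genes of the list, the summed level of the list was 3667 to 6432 in the controls and 3314 to 3659 on day 3.

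In the same comparison 6 of 10 genes of patrolling monocytes rose and 1 fell, 7 of 12 of neutrophils rose, 15 of 15 of T cells, 8 of 10 of plasmacytoid dendritic cells with 1 lower, 3 of 5 of B and plasma cells and 11 of 14 of endothelial cells. Of the fibroblast list, which includes progenitors known to carry Sca-1, 9 of 13 rose and 1 fell. Of the lists of other cells, 3 of 8 adipocyte genes and 1 of 8 skeletal muscle genes rose, the latter with a median of 2.25 on the log2 scale. The summed level of the T cell list was 36.3 to 90.5 in the controls and 313 to 583 on day 3, and that of the endothelial list was 253 to 377 in the controls and 418 to 555 on day 3. Only 2 of 14 endothelial genes were called without day 3 tumour 2. The pan-leukocyte list had 6 of 6 higher, with summed levels of 172 to 584.5 in the controls and 2110 to 3202 on day 3. So markers of several cell types that carry Ly6 proteins were higher together, and the part of each in the Ly6 levels was not tested.

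On day 6, where limma called 5.92% of all genes, 4.49% higher and 1.43% lower, 6 of 15 inflammatory monocyte genes, 13 of 15 T cell genes, 0 of 14 endothelial genes and 1 of 12 neutrophil genes rose. Of all calls 75.9% were higher, and 60.4% after quantile normalisation. The counts of monocyte and T cell genes rested on single libraries, and were 0 without day 6 tumour 2, without control day 3 tumour 2 or without control day 6 tumour 2. On day 18, with 7.92% of all genes called, 5.42% higher and 2.5% lower (68.4% of the calls, 56.4% after median-of-ratios rescaling and 44.9% after quantile normalisation), 4 of 15 inflammatory monocyte genes rose and 1 fell, 4 of 12 neutrophil genes rose, and 0 of 15 T cell genes did. The adipocyte genes moved far more at that time: 8 of 8 rose, and their summed level was 2680 to 2708 against 23.8 to 71.0 in the controls. Of the fibroblast list 8 of 13 rose, but 3 without day 18 tumour 1. Skeletal muscle genes split the day 18 tumours, with a summed level of 42.96 in tumour 1 and 1682 in tumour 2. Of plasmacytoid dendritic cell genes 4 of 10 rose and 1 fell, and of B and plasma cell genes 2 of 5 rose. None of 6 pan-leukocyte genes was called, and of 10 patrolling monocyte genes 0 rose and 1 fell.

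From day 18 to day 27, 7 of 15 inflammatory monocyte genes fell and none rose, beside the 6.86% of all genes called lower. Plac8 fell by 3.22 on the log2 scale (SE 0.66, limma adjusted p = 0.0145), from 349.6 and 123 to between 18.6 and 23.6. Hp, which encodes haptoglobin and is made by fat and other cells as well as by monocytes, fell from 1044 and 987.5 to between 0.977 and 2.05. Of the neutrophil list 8 of 12 fell, of the fibroblast list 7 of 13, of the adipocyte list 8 of 8, of the T cell list 3 of 15 and of the endothelial list 2 of 14. Without day 18 tumour 1 the count was 3 for monocytes and 3 for neutrophils, and without day 18 tumour 2 it was 4 and 3, while 8 of 8 adipocyte genes were called lower in each case. The adipocyte genes summed to 19.4 to 28.9 on day 27. With all tumours, 0 of 6 pan-leukocyte genes, 1 of 10 patrolling monocyte genes and 3 of 8 skeletal muscle genes fell. Of plasmacytoid dendritic cell genes 4 of 10 fell and 1 rose, and of B and plasma cell genes 1 of 5 fell. The part of fat, stroma or leukocytes in the fall of the Ly6 genes was not tested. On day 27 against the controls, where limma called 6.67% of all genes, 3.58% higher and 3.09% lower, 0 of 15 inflammatory monocyte genes rose and 3 fell (F13a1, Hp and S100a4), 0 of 15 T cell genes differed and 2 of 14 endothelial genes rose.

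Genes of the interferon response, to which Ly6a, Ly6c and Ly6e belong, were counted from lists without the 5 members. On day 3, 17 of 17 genes of the interferon gamma list and 19 of 19 of the type I interferon list rose. Irf7, a regulator of type I interferon genes, rose from 62.7 ± 43.95 (SD, n = 4) to 312 and 460.2. The type I count was 8 of 19 without day 3 tumour 2 and 11 of 19 without day 3 tumour 1. On day 6 the counts were 8 of 17 and 12 of 19, and 0 and 0 without day 6 tumour 2, control day 3 tumour 2 or control day 6 tumour 2. The summed type I level was 2111 and 7012 in the day 6 tumours 1 and 2, against 393 to 1236 in the controls. All 5 Ly6 genes had the same order of these tumours. So had the summed T cell, pan-leukocyte and skeletal muscle lists, while the fibroblast list had the opposite order. The share of all genes with this order was not counted.

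On day 18 none of the 17 and none of the 19 rose or fell at the threshold, with medians of 0.37 and 1.32 beside 0.07 over all genes, and from day 18 to day 27 none differed either (medians -0.69 and -0.48 beside -0.06). Ly6a, Ly6c1 and Ly6c2 passed in that comparison, but the difference between their fall and that of the interferon genes was not tested.

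The enzymes that build and attach the GPI anchor gave little to see. Of 26 genes tested, 3 rose and 5 fell on day 3, beside 24.9% and 20.8% of all genes. None was called on days 6, 18 or 27 against the controls, where 5.92%, 7.92% and 6.67% of all genes were called. From day 18 to day 27, 2 fell and 0 rose, beside 6.86% of all genes called lower. Their summed level was 757 to 816 in the controls and 736 to 866 in the treated tumours. Pgap2, which remodels the anchor, rose on day 3 from 59.7 ± 8.73 (SD, n = 4) to 97.6 and 124. Dpm3, a subunit of the mannose donor synthase, was at 112 ± 3.31 (SD, n = 4) and at 107 and 107.

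Of 17 other genes of the cluster listed, 4 were in the table by symbol and 3 were tested. The rest, Ly6g among them, were not analysed under their listed symbols. Ly6d, a gene of squamous epithelium and B cell precursors at chr15:74762056-74763620, rose on day 3 and on day 18 (2.83, SE 0.71, limma adjusted p = 0.0364) and fell from day 18 to day 27 (-3.26, limma adjusted p = 0.0185). It was uneven: 0.284, 0.156, 5.53 and 0.153 in the controls, 4.47 and 8.07 on day 3, 4.41 and 30.4 on day 18, and 0.173 to 0.513 on day 27. Lynx1, which binds acetylcholine receptors, rose on day 3 from 1.57 ± 0.323 (SD, n = 4) to 3.57 and 4.13. It also rose on day 18, to 2.62 and 3.33 (0.63, SE 0.16, limma adjusted p = 0.0402), and fell from there to between 0.988 and 1.34 on day 27 (-0.87, SE 0.16, limma adjusted p = 0.00860). Ly6d and Lynx1 were thus called in the same directions on days 3 and 18 and from day 18 to day 27.

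Gpihbp1, which carries lipoprotein lipase across capillary endothelium, had its highest group mean on day 27. It was at 13.1, 12.8, 22.2 and 19.3 in the controls, 17.4 and 35.9 on day 3, 14.5 and 9.77 on day 6, 17.5 and 16.1 on day 18, and 51.4, 31.3, 78.2 and 43.5 on day 27. The differences on day 3 (0.58) and day 18 (0.03) did not pass (limma adjusted p = 0.178 and 0.961). All day 27 tumours were above all controls and above both day 18 tumours. The rise over the controls was 1.51 on the log2 scale (SE 0.27, limma adjusted p = 0.0108), and that over day 18 was 1.47 (SE 0.33, limma adjusted p = 0.0223).

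Of 19 family genes listed elsewhere in the genome, 6 were in the table and 5 were tested. On day 3 only Cd59b, a complement inhibitor, rose, from 2.15 ± 0.337 (SD, n = 4) to 5.45 and 8.11. Plaur, the urokinase receptor and the most abundant of them, did not pass in any comparison, with 71.4, 213.6, 55.4 and 101 in the controls and 30.0 and 86.1 on day 3. From day 18 to day 27, Cd59a (-0.92, limma adjusted p = 0.0428) and the neutrophil gene Cd177 (-1.21, limma adjusted p = 0.00881) fell.

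Within 200 kb on either side of the 5 genes the annotation held 32 genes, 16 of them protein coding, members included. Besides the members, 3 were tested: Ly6d, 2010109I03Rik and I830127L07Rik. The promoter listed for Ly6a2, another gene of the cluster, lies at chr15:75135129-75135378, next to the upper end of I830127L07Rik. Both are on the minus strand, so the symbols may name the same gene. I830127L07Rik is annotated as a transcribed pseudogene at chr15:75131377-75135128 and shares 4.37% of the 31-base stretches of Ly6a, 4.58% of those of Ly6i and 4.9% of those of Ly6c2. It rose on day 3 (2.22 on the log2 scale, limma adjusted p = 0.0187), from 0.0784 to 0.486 in the controls to 2.16 and 10.1, was at 1.23 and 15.2 on day 6 and was listed at 0 in 2 of the day 27 tumours. 2010109I03Rik, between Ly6d and Ly6e, was at 0.725 to 1.51 in the controls and at 1.12 and 0.684 on day 3, and did not pass in any comparison with the controls or with day 18. Gm28068, a long noncoding RNA gene between Ly6a and Ly6c1, was in the table but too low to be tested.

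**Figure D5:**
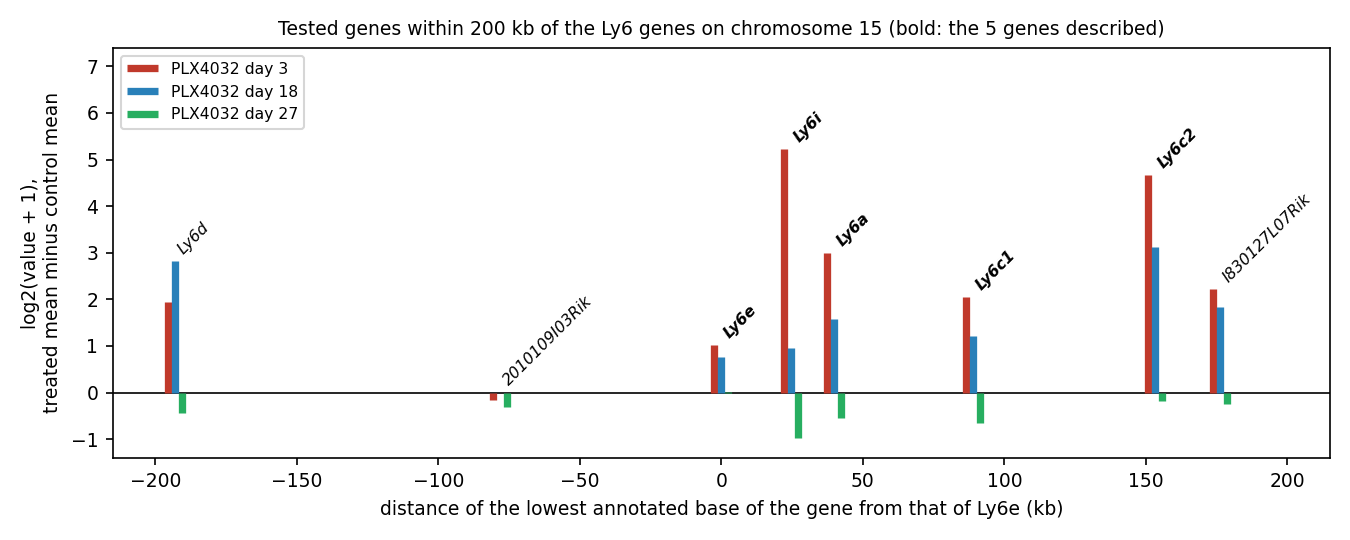
Differences of mean log2(value + 1) from the controls on PLX4032 days 3, 18 and 27 for the tested genes in the 200 kb on either side of the 5 Ly6 genes, placed by distance in kb from Ly6e; names of the 5 genes are bold. The bars of day 3 are positive for all genes except 2010109I03Rik, and Ly6i has the tallest (5.24) with a far smaller one on day 18 (0.95).

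Across all 14 tumours the genes most like each member were named by Pearson's r of log2(value + 1) over 13345 named genes, as a description. The tumours share their groups and the contents of the tissue, so high values are common. Plac8, from the inflammatory monocyte list used here, was the closest to Ly6a (r = 0.981) and Ly6c2 (r = 0.983). It was the second closest to Ly6e (r = 0.982). The chemokine gene Ccl7 and the interleukin receptor gene Il15ra followed for Ly6a (r = 0.974 each), and the complement gene Cfb (r = 0.980) and the nucleoside transporter gene Slc28a2 (r = 0.978) for Ly6c2. Ly6e was closest to Pdcd1, which encodes the checkpoint receptor PD-1 (r = 0.984), and Gimap7 came after Plac8 (r = 0.981).

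Ly6i was closest to Itgal (r = 0.994), which encodes the leukocyte integrin chain CD11a, then to Sh3bp2 (r = 0.989) and Pira1 (r = 0.986). Itgal was at 8.60 ± 4.90 (SD, n = 4) in control tumours, 47.2 and 97.3 on day 3, 18.3 and 66.2 on day 6, and 16.9 and 9.27 on day 18. Ly6c1 stood apart, with lower values and genes of other kinds: the mitochondrial protease gene Lactb (r = 0.960), Mon1a (r = 0.958) and Gdap2 (r = 0.957). Between members r ran from 0.812 for Ly6c1 with Ly6i to 0.978 for Ly6c2 with Ly6e.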

How the data were processed

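RNA was taken from 14 whole tumours with Trizol and made into libraries with an Illumina TruSeq kit, per the labels' protocols. Kallisto, sleuth and mm10 are named without versions in the submitters' processing notes. The authors deposited a single table named TPM, by gene symbol, but 5 of 14 columns sum to more than 1000000, so the deposited signal is a rescaled TPM, with the rescaling not given in the sources used here. Counts, depth and counting error are unknown. Symbols were matched to official names for 17811 of 18481 genes (96.4%), and 0 columns were left unused. Columns name groups and not animals, so p-values cover only the spread among the deposited tumours, which may be partly technical. Tumours of the same group correlated at 0.962 to 0.990 (log2 values) and no columns were identical.

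Genes reaching 1 in at least 2 tumours (15841) were tested as log2(value + 1) with limma 3.58.1 in R 4.3.3, on 6 group means with a variance trend and 8 residual degrees of freedom. Tests were 2-sided, p-values were adjusted by Benjamini-Hochberg over all genes tested, and the threshold was 0.05. The filter and test were planned for TPM and kept for this signal. Treated days were set against the mean of the 2 control groups, day 27 with day 18, and control day 6 with control day 3. Tests of the members were limited to the last 2 comparisons.

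The members and lists were chosen with earlier results of these data known. Named genes are the members, other family genes with a mean of 1 or more, the highest genes by mean level of each list (described in part), the 3 genes most like each member, and genes of the region. Genes called in small lists, Ccr2, F13a1 and Cd177 were named after their values were seen.

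Sequences were compared with Biopython 1.88. Transcripts came from GENCODE M21 and promoters from RefSeq (GRCm38.p6). Protein sequences were not used here, and coding sequences took their place.

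The fit was tested on simulated log2 values for 15841 genes. For day 27 against day 18, 80.6%, 88.1% and 98.5% of genes changed by 1, 2 and 3 log2 units were recovered, and 12 of 190 calls were unchanged genes. For control day 6 against day 3 the shares were 73.1%, 89.6% and 95.5%, with 4 of 176. The simulation holds no tumours that share a mouse. Changed genes were drawn only from those with a mean log2 level above 2, and the noise was normal and independent. The shares need not hold for the members, whose standard errors for day 27 against day 18 ran from 0.22 to 0.78.

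Alternatives were pseudocounts of 0.1 and 5, a filter at 5 and none, no variance trend, quantile normalisation, median-of-ratios rescaling, the compared groups alone, controls of the same day alone, each tumour left out, the sum of Ly6c1 and Ly6c2, and 3 pairings of the day 27 tumours, which were chosen after seeing the data.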

Additional observations from a re-analysis of the deposited data

How the results depend on the processing

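For the 5 Ly6 genes, tested differences kept direction and call in 125 results under alternatives, lost the call in 18, gained it in 2 and changed sign in 4. The sign changes were of uncalled differences between the controls: Ly6c2 (0.23 without control day 3 tumour 1), Ly6c1 (-0.33 without control day 6 tumour 1, -0.09 for the sum of Ly6c1 and Ly6c2) and Ly6e (0.02 without control day 6 tumour 2). With each tumour left out these ran from -1.24 to 0.23, from -0.33 to 0.50 and from -0.23 to 0.02. The 125 unchanged results include differences not called in the main fit, which had no call to lose. All 18 losses were of Ly6a, Ly6c1 and Ly6c2 between days 27 and 18, where these genes had 17, 18 and 18 results. With each tumour left out, that difference ran from -2.79 to -1.44 for Ly6a, from -2.42 to -1.29 for Ly6c1 and from -4.08 to -2.53 for Ly6c2. A group reduced to 1 tumour is assumed to vary like the others. With the day 27 tumours averaged by pairs (1 with 2, 1 with 3, 1 with 4), it was -2.11, -2.11 and -2.12 for Ly6a, -1.82, -1.85 and -1.82 for Ly6c1 and -3.21, -3.28 and -3.20 for Ly6c2. A fit on the compared groups alone added Ly6e (-0.76, adjusted p = 0.0464) and Ly6i (-1.92, adjusted p = 0.0191).

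Counts of all genes called by limma changed more. With each tumour left out they ran from 4345 to 7365 on day 3, 0 to 2145 on day 6, 370 to 2220 on day 18 and 497 to 1140 on day 27, from 552 to 1919 for day 27 against day 18, and from 0 to 31 between the controls. The compared groups alone gave 0 on day 6 and 178 on day 18, and controls of the same day alone gave 8 on day 6. The pairings gave 252, 170 and 260 on day 27 and 574, 479 and 592 for day 27 against day 18. Fewer samples enter each of these fits, and other causes were not tested. Differences of the members from the controls, given without a test, moved by more than the replicate spread in 24 results and by less in 299. No paired analysis was possible because the columns carry no numbers that tie tumours of different groups. Depth is unknown, and Ly6i on day 27 lay near the pseudocount.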

Other observations

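The control tumours differed among themselves in the leukocyte gene Ptprc, from 6.01 in control day 6 tumour 2 to 29.2 in control day 3 tumour 1. Ly6c2 was also highest in control day 3 tumour 1, at 32.3 beside 11.1, 15.05 and 11.4. Divided by Ptprc, Ly6e was 58.2 to 230.3 in the controls, 19.4 to 23.6 on day 3, 27.4 to 39.3 on day 6, 60.4 to 74.0 on day 18 and 43.1 to 119 on day 27. Per unit of Ptprc, Ly6e was thus lower in all tumours of days 3 and 6 than in every control, the opposite order to its level. Ptprc itself was at 57.3 to 182.8 in those tumours, so the divisor sets this order and nothing is read from it.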
